A study of Schizosaccharomyces pombe with 70 samples.

Results

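Transcript levels of fission yeast (Schizosaccharomyces pombe) with a mutated rad3 or cds1 gene were compared between 60 min and 30 min of hydroxyurea. The comparison used 12 of the 70 arrays of the study: the single mutants rad3 and cds1, with 3 arrays each at 60 min and 3 each at 30 min. Wild type and the chk1 single mutant at the same times, on 12 more arrays, served for comparison. Samples of 0, 10 and 120 min, and the rad3 sep1 double mutant, in which the gene of the forkhead transcription factor Sep1 is mutated too, with 2 arrays at each time, were read for some of the genes named or called. All cultures were asynchronous, in the middle of logarithmic growth at 30 degrees, and received 8 mM hydroxyurea. No untreated sample of these times was analysed here, so time in the drug and time in culture cannot be told apart. Every value is the log2 ratio of the sample to untreated wild-type cells, whose RNA was the second colour of each array, so 0 means the level of that RNA and 1 a doubling. Wild type at 0 min did not itself read 0 for every gene (mean 0.77 for hsp16 and -0.92 for pyp2), so changes between times, not levels against 0, carry the comparison.

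Hydroxyurea inhibits ribonucleotide reductase, the enzyme that makes the building blocks of DNA, and so stalls replication forks. Rad3, the kinase related to human ATR, senses the stalled forks and activates the kinase Cds1, which stabilises the forks, holds back mitosis and keeps the transcription factor MBF active on genes of the G1/S transition. Chk1 is the effector kinase of the related DNA damage checkpoint. Separately from the checkpoint, the MAP kinase Sty1 switches on a core set of stress genes, and the transcription factor Pap1 a set of redox genes, in response to many kinds of stress.

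The mutants carried low signals of their own mutated gene at both times. The rad3 probes read -1.60 and -2.55 at 60 min in the rad3 mutant, against -1.70, -2.81 and -1.97 at 30 min. The cds1 probes read -2.27, -3.01 and -2.75 at 60 min in the cds1 mutant, against -2.25, -2.75 and -2.01 at 30 min. Elsewhere among wild type, chk1 and the other of these mutants no sample at these times was below -0.55 for rad3 or below -0.17 for cds1. The 12 arrays gave 9830 to 9852 values each for 9858 probes, 2 probes per gene, and their medians lay between -0.04 and 0.02. Replicates 1 and 3 of rad3 at 60 min differed only by a shift of the whole array and by noise that the 2 probes of a gene did not share (r of the difference between probes 0.0317, against 0.294 to 0.488 in the other pairs of arrays of a group), so their mean was counted as 1 sample. This left 5 samples at 60 min and 6 at 30 min. The series text calls the repeats biological, and nothing more is given about the cultures. The p-values therefore measure the spread between samples of a group, estimated over all 25 groups of strain and time.

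In the second part of the first hour, members of the heat shock, redox and stress groups rose further in these mutants, while members of the uracil response, sulfate assimilation and nutrient transport groups fell. Of 4921 features tested, 88 passed an adjusted p of 0.05 (limma, both strains weighted equally), which is 1.79% of the features. Of these, 70 were higher at 60 min than at 30 min (1.42%) and 18 were lower (0.366%). Changes were modest: 2 features (0.0406%) were higher and 1 (0.0203%) was lower by a log2 change of at least 1, and the median over all features was -0.00 with an SD of 0.14. In 56 of the 70 higher features and 17 of the 18 lower ones the samples of the times did not overlap in either strain, which held for 4.08% of all features. Of the called genes, 27 of the higher and 3 of the lower have only a systematic name, in which the start SPAC, SPBC or SPCC marks chromosome I, II or III. The count was 39 with quantile normalization and 360 with array weights, and it was 49 without replicate 2 of rad3 at 60 min and 134 without replicate 1 of cds1 at 60 min. Of the 15 largest increases 7 kept their call under quantile normalization and 13 with either probe alone; of the 15 largest decreases, 15 kept it under quantile normalization, 10 with the first probe and 6 with the second.

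**Figure D1:**
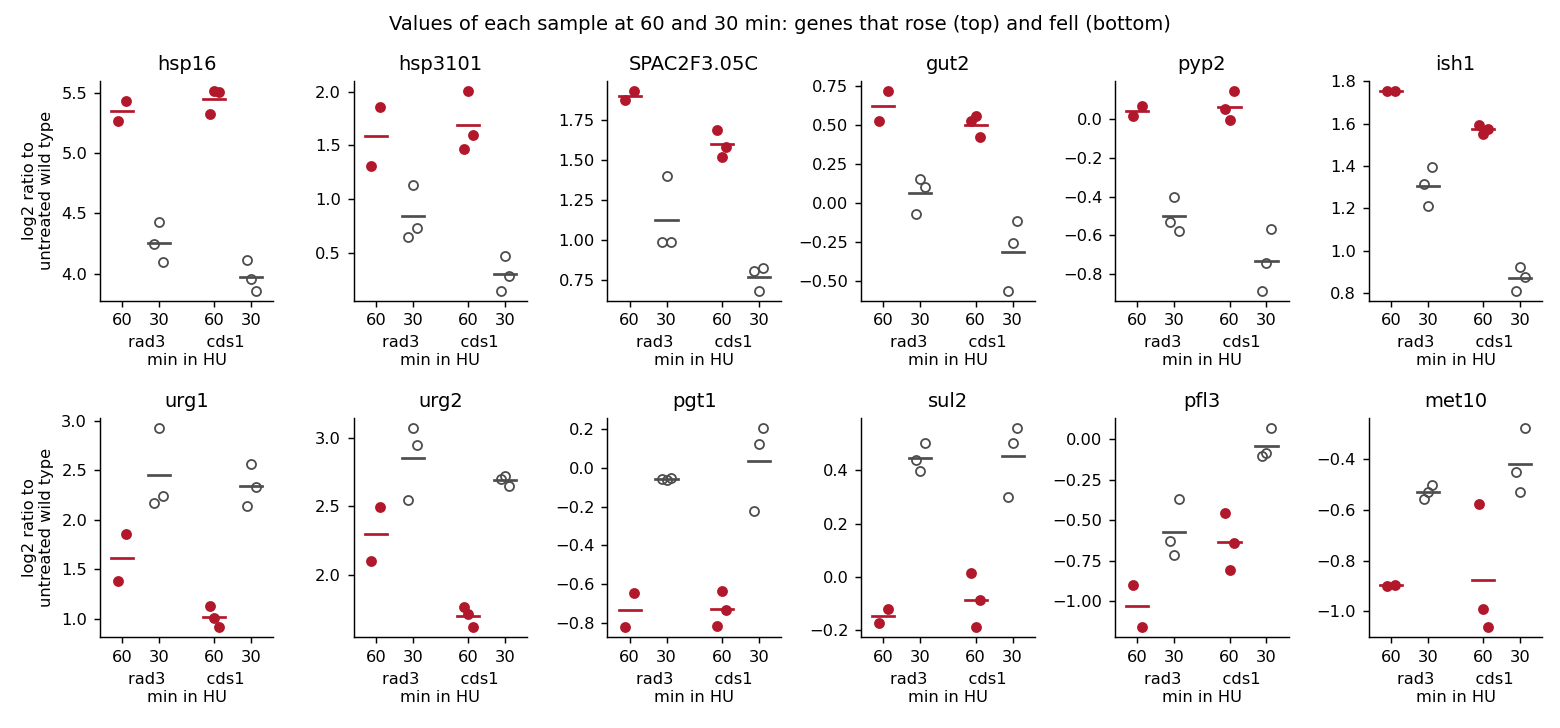
Log2 ratio to untreated wild type (vertical axis, one scale per gene) of each sample of the rad3 and cds1 mutants at 60 min (filled) and 30 min (open), with group means as bars, for 6 genes that rose and 6 that fell. For hsp16 every 60 min sample lies at 5.27 or above and every 30 min sample at 4.43 or below.

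The largest increase was that of hsp16, the gene of a small heat shock protein that holds unfolded proteins in solution. It read 5.27 and 5.43 at 60 min in rad3, against 4.24, 4.43 and 4.09 at 30 min, and 5.33, 5.52 and 5.51 at 60 min in cds1, against 4.11, 3.95 and 3.86 at 30 min. All 60 min samples lay above all 30 min samples, and the change of 1.28 ± 0.11 (SE; adjusted p = 2.3e-11, limma) was a 2.44-fold rise. The gene was already above the wild-type reference before hydroxyurea, at a mean of 3.45 in rad3 and 2.41 in cds1, against 1.84 in chk1 and 0.77 in wild type. It kept climbing at each time measured in rad3, with means of 3.45, 3.71, 4.25, 5.35 and 6.02 at 0, 10, 30, 60 and 120 min. In wild type and chk1 hsp16 rose too, by 1.00 (adjusted p = 1.0e-06), and the difference between the strain pairs, 0.28 ± 0.17, did not pass (adjusted p = 0.997). Quantile normalization sets the hsp16 change to 0.00, because hsp16 holds the top rank on 12 of 12 arrays and that method gives the top rank one value.

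Next came hsp3101, the gene of a DJ-1 family protein of the kind that detoxifies glyoxals. Its values were 1.31 and 1.86 at 60 min in rad3, against 0.65, 1.13 and 0.73 at 30 min, and 1.46, 2.01 and 1.59 at 60 min in cds1, against 0.15, 0.47 and 0.28 at 30 min. The times did not overlap in either strain, and the pooled rise was 1.07 ± 0.13 (adjusted p = 1.1e-07), or 2.09-fold. The rise was 1.39 in cds1 and 0.75 in rad3, where it did not pass alone (adjusted p = 0.12). The difference between cds1 and rad3 in this rise, 0.64 ± 0.26, did not pass either. The change of hsp3101 in wild type and chk1 was 0.28 (adjusted p = 0.88). The difference between the strain pairs, 0.79 ± 0.19, missed the threshold (adjusted p = 0.067, limma).

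Core environmental stress genes, the common targets of Sty1, had the most calls of the 24 gene lists examined. Of 17 members tested, 7 rose and 0 fell, and the list median was 0.35, beside -0.00 over all features. The catalase gene ctt1 (0.59 ± 0.09), the glutathione S-transferase gene gst2 (0.58 ± 0.08), the stress gene ish1 (0.57 ± 0.08) and pyp2 (0.67 ± 0.09) were among them. The other risers were hsp16, hsp9 (0.57) and the neutral trehalase gene ntp1 (0.41). For ish1 the samples were tight: 1.75 and 1.75 at 60 min in rad3, against 1.32, 1.21 and 1.40 at 30 min, and 1.59, 1.55 and 1.57 at 60 min in cds1, against 0.81, 0.92 and 0.88 at 30 min. No ish1 value at 60 min reached down to the range at 30 min in either strain. The 2 probes of ctt1 disagreed, with changes of 0.00 and 1.18. Under quantile normalization 2 of the 17 passed, pyp2 and ctt1, and the list median was 0.08. In wild type and chk1, where 0.488% of all features were called higher and 0.122% lower, 2 of the 17 rose and 0 fell. The list median there was 0.20. The difference between the strain pairs passed for 1 member, pyp2, beside 0.163% of all features, and its median over the list was 0.10.

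pyp2 encodes a tyrosine phosphatase that switches Sty1 off again and is itself a target of the pathway. It read 0.02 and 0.07 at 60 min in rad3, against -0.53, -0.40 and -0.58 at 30 min, and 0.05, -0.01 and 0.15 at 60 min in cds1, against -0.89, -0.74 and -0.57 at 30 min. Without overlap in either strain, the rise was 0.67 ± 0.09 (adjusted p = 3.9e-06), or 1.59-fold. The change was 0.03 in wild type and chk1.

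Among 14 redox genes of the Pap1 list, 5 rose and 0 fell, with a median of 0.19. They were hsp3101, ctt1, gst2, srx1, which encodes sulfiredoxin, and caf5, at 0.34. The call of srx1 (0.37 ± 0.10, adjusted p = 0.039) was lost in 8 of the 11 fits that left out 1 sample. Under quantile normalization hsp3101 and ctt1 were the members that passed. In wild type and chk1 1 of the 14 rose (0.488% of all features) and 0 fell (0.122%), with a median of 0.13. The difference between the strain pairs passed for 0 of the 14 (0.163% of all features), with a median of 0.09.

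Of 17 chaperone genes, 5 rose and 0 fell, with a median of 0.16. Beside hsp16 these were hsp78, which encodes the mitochondrial member of the ClpB family of protein disaggregases (0.70 ± 0.16), and hsp104, which encodes its cytosolic relative (0.66 ± 0.17). The co-chaperone gene psi1 (0.41 ± 0.10) and the Hsp70 gene ssa1 (0.37) completed the set. For hsp104 the values were 3.30 and 3.71 at 60 min in rad3, against 2.69, 3.07 and 2.97 at 30 min, and 3.42, 3.57 and 3.43 at 60 min in cds1, against 2.76, 2.68 and 2.80 at 30 min. The times were apart in both strains. Without replicate 2 of rad3 at 60 min the adjusted p was 0.14 for hsp78, 0.24 for hsp104 and 0.30 for psi1, and hsp104 and psi1 also failed without replicate 1 of rad3 at 30 min (0.067 and 0.060). Likewise hsp104 failed without replicate 2 of cds1 at 60 min (0.051) and psi1 without replicate 1 of cds1 at 30 min (0.061). Under quantile normalization 0 of the 17 chaperone genes passed. In wild type and chk1 1 of the 17 rose (0.488% of all features) and 0 fell (0.122%), with a median of 0.14. The difference between the strain pairs passed for 0 of the 17 (0.163% of all features), with a median of 0.16.

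Metabolic genes rose beside them. gut2, the gene of the mitochondrial glycerol-3-phosphate dehydrogenase that feeds glycerol carbon into respiration, read 0.53 and 0.72 at 60 min in rad3, against -0.07, 0.15 and 0.11 at 30 min. In cds1 it read 0.53, 0.56 and 0.43 at 60 min, against -0.56, -0.25 and -0.12 at 30 min. The samples of the times were apart in both strains, and the rise was 0.69 ± 0.08 (adjusted p = 7.2e-08). The alcohol dehydrogenase gene adh8 rose by 0.76 ± 0.14 and the hexitol dehydrogenase gene tms1 by 0.64 ± 0.11. These last genes are neighbours in the RefSeq annotation. In wild type and chk1 adh8 changed by 0.18 and tms1 by 0.41 (adjusted p = 0.99 and 0.21, limma).

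Among genes with a systematic name only, SPOM_SPAC2F3.05C had the smallest adjusted p. It read 1.87 and 1.93 at 60 min in rad3, against 0.99, 1.40 and 0.99 at 30 min, and 1.69, 1.52 and 1.58 at 60 min in cds1, against 0.81, 0.68 and 0.82 at 30 min. The ranges were apart in both strains, and the rise of 0.80 ± 0.08 (adjusted p = 2.3e-09) was called in rad3 alone and in cds1 alone. SPOM_SPCC338.18 rose by 0.87 ± 0.20, SPOM_SPCC16A11.15C by 0.72 ± 0.08, SPOM_SPAC637.03 by 0.67 ± 0.12 and SPOM_SPAC13C5.04 by 0.65 ± 0.13. In wild type and chk1 SPOM_SPAC637.03 rose too, by 0.56 (adjusted p = 0.019, limma). The changes there were 0.25 for SPOM_SPCC338.18, 0.14 for SPOM_SPCC16A11.15C and 0.36 for SPOM_SPAC13C5.04, and these did not pass. Without replicates 1 and 3 of rad3 at 60 min the adjusted p of SPOM_SPCC338.18 was 0.065. The genes ppp16 (0.64 ± 0.10) and slt1 (0.62 ± 0.13) complete the 15 largest increases.

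The largest decrease was that of urg1, a gene named for its rapid induction by uracil. It read 1.38 and 1.86 at 60 min in rad3, against 2.17, 2.93 and 2.24 at 30 min, and 1.13, 1.01 and 0.91 at 60 min in cds1, against 2.14, 2.56 and 2.33 at 30 min. All 60 min samples were below all 30 min samples, and the change was -1.08 ± 0.14 (adjusted p = 1.2e-06), or 2.11-fold lower. The fall came after a fast rise: in cds1 the means of urg1 were -0.14, 1.99, 2.34, 1.02 and 1.60 at 0, 10, 30, 60 and 120 min. The related gene urg2 fell by 0.77 ± 0.14 (adjusted p = 0.00037), again with the times apart in both strains. In the list of 3 uracil-responsive genes 2 fell and 0 rose. Both genes also fell in wild type and chk1, by 0.67 (adjusted p = 0.023) for urg1 and 0.75 (adjusted p = 0.0058) for urg2.

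Sulfur genes formed the second group that fell. Of 8 genes of sulfate assimilation and glutathione uptake, 3 fell and 0 rose, with a list median of -0.16. pgt1, the gene of a glutathione transporter, read -0.82 and -0.65 at 60 min in rad3, against -0.06, -0.06 and -0.05 at 30 min, and -0.82, -0.64 and -0.73 at 60 min in cds1, against -0.23, 0.12 and 0.21 at 30 min. It changed by -0.72 ± 0.10 (adjusted p = 5.3e-06) with no overlap. The sulfate transporter gene sul2 changed by -0.57 ± 0.09 and met10, a gene of sulfite reductase, by -0.41 ± 0.08. The same genes fell in wild type and chk1, with changes of -0.52 for pgt1, -0.52 for sul2 and -0.36 for met10. The sul2 means in rad3 were -0.32, 0.37, 0.45, -0.15 and -0.53 at 0, 10, 30, 60 and 120 min, so a rise by 10 min was partly reversed at 60 min.

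Other decreases touched nutrient uptake and the cell surface. Of 11 nitrogen and amino acid transport genes 2 fell and 0 rose: the amino acid transporter gene aat1 (-0.39 ± 0.10) and the ammonium transporter gene amt1 (-0.34 ± 0.08). The phosphate transporter gene pho842 fell by 0.52 ± 0.09. The glutamate synthase gene glt1 (-0.43 ± 0.10) was the 1 member of 14 iron-using protein genes that fell, and 0 rose. Without replicates 1 and 3 of rad3 at 60 min the changes were -0.35 for aat1, -0.30 for amt1 and -0.35 for glt1. Leaving out replicate 3 of cds1 at 60 min gave an adjusted p of 0.074 for aat1, and leaving out replicate 3 of cds1 at 30 min gave 0.065 for glt1. aat1 and amt1 lost the call with the first probe alone (adjusted p = 0.13 and 0.14, limma) and with the second (0.19 and 0.20). They also lost it with only the groups compared (0.055 and 0.065). glt1 lost it with the second probe (0.22) and with only the groups compared (0.080). In wild type and chk1 glt1 changed by -0.35 (adjusted p = 0.25, limma).

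Of 6 flocculin genes, whose products make cells stick together, 1 fell and 0 rose. It was pfl3, with -0.90 and -1.16 at 60 min in rad3, against -0.63, -0.72 and -0.37 at 30 min, and -0.46, -0.81 and -0.64 at 60 min in cds1, against -0.10, -0.09 and 0.07 at 30 min. The times did not overlap within a strain, and the change was -0.53 ± 0.09 (adjusted p = 0.00025). In wild type and chk1 the change was 0.05, and the difference from them missed the threshold (adjusted p = 0.067). The aldehyde dehydrogenase gene atd1 (-0.62 ± 0.13), the DNA-binding protein gene sap1 (-0.56 ± 0.12), the stress-responsive gene sro1 (-0.45 ± 0.09), SPOM_SPAC1039.02 (-0.69 ± 0.13) and SPOM_SPAC521.03 (-0.41 ± 0.07) complete the 15 largest decreases. In wild type and chk1 sro1 fell too, by 0.40 (adjusted p = 0.022, limma). Without passing, the changes there were -0.56 for atd1 (adjusted p = 0.056, limma), -0.23 for sap1 and -0.22 for SPOM_SPAC1039.02.

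**Figure D2:**
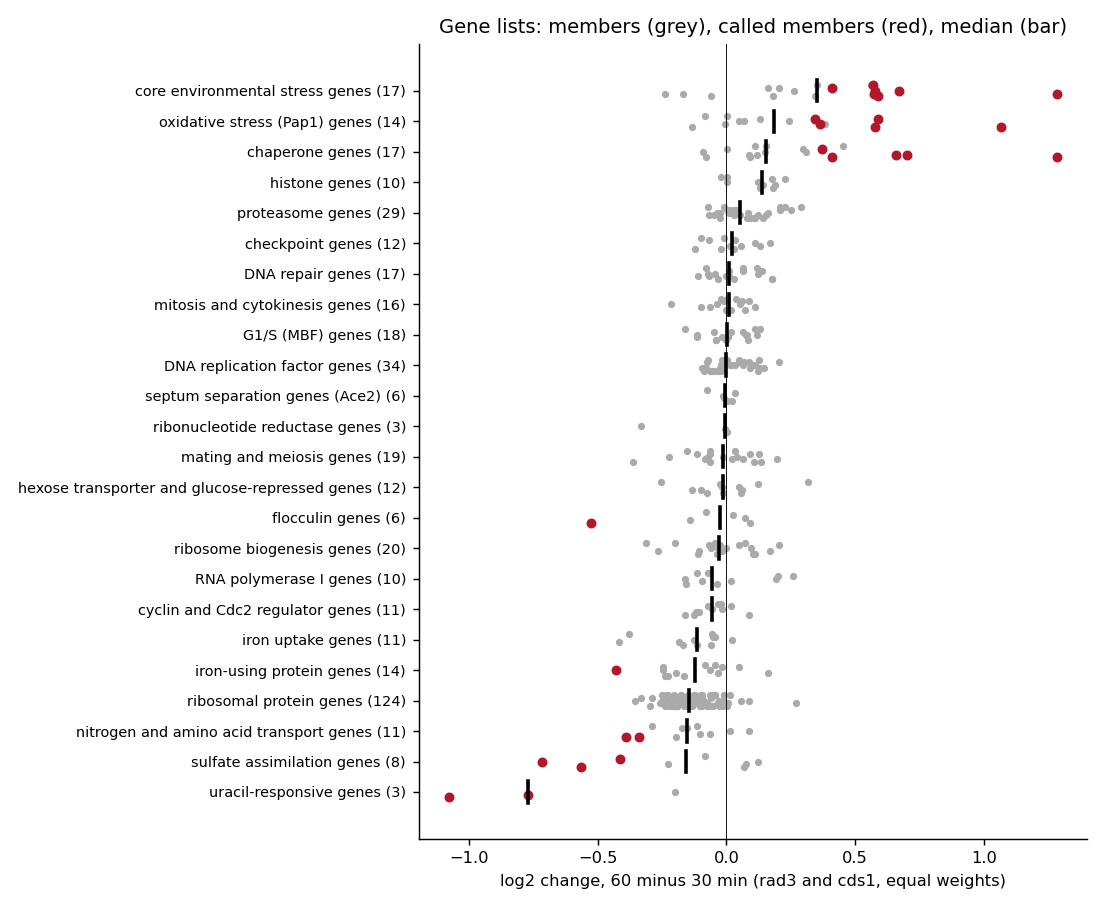
Log2 change from 30 to 60 min in rad3 and cds1 (horizontal axis) of every tested member of 24 gene lists (rows, with the number tested), with members past an adjusted p of 0.05 in red and the list median as a bar. The core stress, redox and chaperone lists have medians of 0.35, 0.19 and 0.16, and the uracil-responsive list of -0.77.

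Genes of the G1/S transition and histone genes did not pass in these mutants. Of 18 G1/S genes of MBF, 0 passed in either direction in rad3 and cds1, and their changes ran from -0.16 to 0.13 with a median of 0.00. In wild type and chk1, where 0.61% of all features were called (0.488% higher and 0.122% lower), 7 of the same 18 rose, with a median of 0.37. The difference between the strain pairs itself passed for 3 of the 18, all lower in rad3 and cds1, beside 0.163% of all features. Its median over the 18 was -0.30. Of the 3 ribonucleotide reductase genes 0 passed. The gene of the small subunit, suc22, changed by -0.01 ± 0.11 and that of the inhibitor Spd1 by -0.33 ± 0.10 (adjusted p = 0.057). The gene spd1 passed in 7 of 24 alternatives, among them the additive model (0.020) and the fits without replicate 1 of cds1 at 30 min (0.029) or at 60 min (0.030). Of 10 histone genes 0 passed in the mutants, with a median of 0.14, and 4 rose in wild type and chk1, with a median of 0.38. The test of the difference between the strain pairs passed for 0 of the 10 histone genes, with a median difference of -0.25. Near-identical histone copies cannot be told apart with certainty on these probes. In an asynchronous culture a larger share of cells at one cell cycle stage and more RNA per cell cannot be told apart.

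Genes of later cell cycle stages did not pass either. Members past the threshold numbered 0 in each direction among 16 mitosis and cytokinesis genes (median 0.01), 6 septum separation genes (-0.00) and 11 cyclin and Cdc2 regulator genes (-0.06). The same count of 0 held for 34 replication factor genes (0.00), 17 DNA repair genes (0.01) and 12 checkpoint genes (0.02). The mitosis gene slp1 read 0.60 and 0.68 at 60 min in rad3, against 1.04, 0.99 and 0.94 at 30 min, and 0.75, 0.75 and 0.54 at 60 min in cds1, against 0.70, 0.82 and 0.75 at 30 min. It was apart in rad3 and overlapped in cds1, and its change of -0.21 ± 0.09 did not pass (adjusted p = 0.30). The recombination gene rad54 changed by 0.18 ± 0.08 (adjusted p = 0.43).

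Of 124 ribosomal protein genes 0 passed, while 118 had a change below 0 and the median was -0.14. Above 0 were 6 of the 124, beside 2449 of the 4921 features tested. Under quantile normalization 121 of the 124 were below 0 and the median was -0.17, and with arrays centred on their medians it was -0.14. In wild type and chk1 the median was 0.05, and 88 of the 124 were above 0. Many of these genes come as near-identical pairs, whose members cannot be separated with certainty. By contrast the 20 ribosome biogenesis genes and the 10 RNA polymerase I genes had medians of -0.03 and -0.05, with 0 called in each. The 29 proteasome genes had a median of 0.05 and 0 called. Single members of these lists passed in some alternatives. The RNA polymerase I gene rrn5 changed by 0.26 ± 0.07 (adjusted p = 0.056) and passed in 6 of 24, among them quantile normalization (0.037) and the fits without replicate 1 of rad3 at 30 min (0.037) or replicate 1 of cds1 at 60 min (0.044). fib1, the gene of the nucleolar protein fibrillarin, passed in 2 of 24, one of them without replicate 2 of rad3 at 30 min (0.043). The proteasome gene rpn6 passed in 4, one of them without replicate 1 of cds1 at 60 min (0.038), and the ribosomal protein gene rps001 in 4.

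No member passed among 11 iron uptake genes (median -0.11), 19 mating and meiosis genes (-0.01) or 12 hexose transporter and glucose-repressed genes (-0.01). The siderophore transporter gene str3 came closest, with -0.09 and 0.02 at 60 min in rad3, against 0.19, 0.46 and 0.26 at 30 min, and 0.44, 0.15 and -0.14 at 60 min in cds1, against 0.65, 0.70 and 0.60 at 30 min. The ranges were apart in both strains, with a change of -0.42 ± 0.12 (adjusted p = 0.057), and it passed when arrays were centred on their medians (0.049). The master regulator of mating, ste11, changed by -0.36 ± 0.11 (adjusted p = 0.058). Both str3 and ste11 passed without replicate 1 of cds1 at 60 min (0.018 and 0.013).

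**Figure D3:**
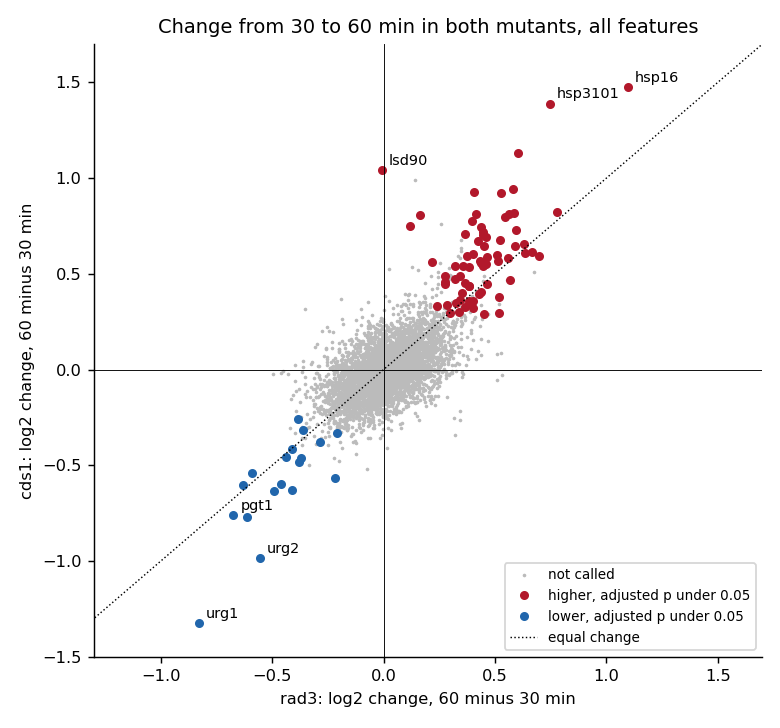
Log2 change from 30 to 60 min in the cds1 mutant (vertical axis) against that in the rad3 mutant (horizontal axis) for all features, with called features in red (higher) and blue (lower) and a dotted line of equal change. Most called features lie farther from 0 in cds1 than in rad3, among them hsp16 (1.47 in cds1, 1.09 in rad3) and urg1 (-1.32 in cds1, -0.83 in rad3).

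Taken alone, the cds1 mutant had more calls than the rad3 mutant. In cds1 51 features passed (1.04%), 39 higher (0.793%) and 12 lower (0.244%). In rad3, with 2 samples at 60 min, 7 passed (0.142%), 5 higher (0.102%) and 2 lower (0.0406%). Of these hsp16, SPOM_SPAC2F3.05C, ppp16, gut2 and the Hsp70 exchange factor gene fes1 (0.59) were higher, and pgt1 and sul2 were lower. Of the 51 in cds1, 3 were not called over both strains: cdr1 (0.39 in cds1, 0.11 in rad3), rhp7 (0.33 in cds1, 0.08 in rad3) and the metallothionein gene zym1 (0.99 in cds1, 0.14 in rad3). The median change of the 70 higher features was 0.57 in cds1 and 0.43 in rad3, and that of the 18 lower ones was -0.55 in cds1 and -0.43 in rad3. The change was larger in cds1 for 54 of the 70 and 14 of the 18. Over all features the share with the larger size in cds1 was 48.9%.

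No feature passed the test of the difference between cds1 and rad3 (0 of 4921 with limma). At an unadjusted p under 0.05 there were 26 features (0.528%), and the fit with all 70 arrays as samples called 1, lsd90. The smallest adjusted p belonged to lsd90. It read 2.08, 1.73 and 1.60 at 60 min in cds1, against 0.76, 0.83 and 0.69 at 30 min, and 2.01 and 2.49 at 60 min in rad3, against 2.09, 2.38 and 2.32 at 30 min. The times were apart in cds1 and overlapped in rad3, where lsd90 was already at 2.09 or above at 30 min. The difference was 1.05 with a 95% interval of 0.59 to 1.51 (adjusted p = 0.19). Like those of ddr48 and SPOM_SPCC1739.08C below, this interval makes no allowance for picking the gene by its small p-value.

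ddr48 and SPOM_SPCC1739.08C showed the same layout as lsd90. ddr48 changed by 0.75 in cds1 and 0.12 in rad3, a difference of 0.63 with an interval of 0.23 to 1.03. SPOM_SPCC1739.08C changed by 0.81 in cds1 and 0.16 in rad3, a difference of 0.64 with an interval of 0.17 to 1.12. Both had an adjusted p of 1.00 for the difference, and the 2 probes of each disagreed. The pooled change of ddr48 was 0.92 by the first probe and -0.054 by the second, and that of SPOM_SPCC1739.08C was -0.083 and 1.05. For hsp16 the interval of the difference, -0.07 to 0.83, included 0, so equal and unequal rises both remain within the data. For SPOM_SPAC2F3.05C the interval was -0.28 to 0.38.

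**Figure D4:**
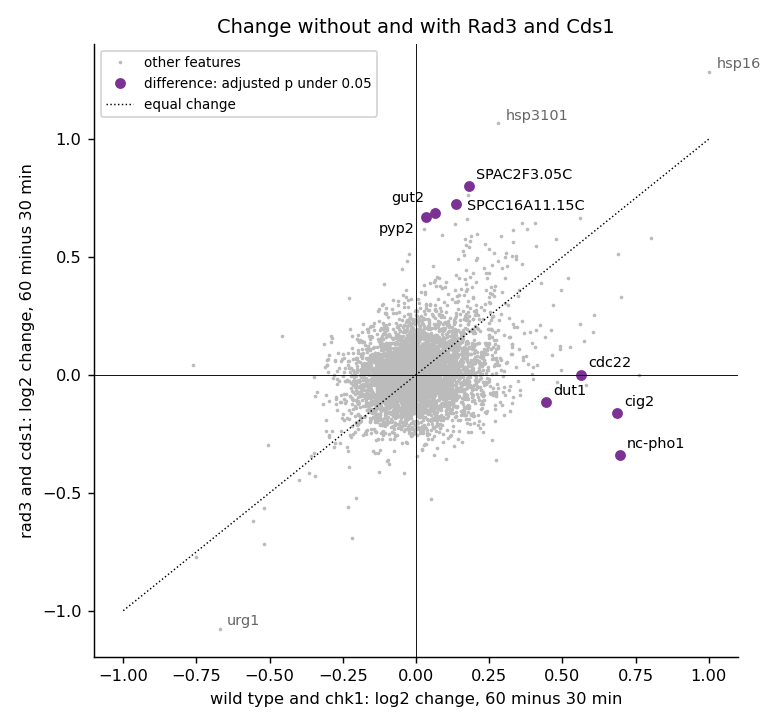
Log2 change from 30 to 60 min in rad3 and cds1 (vertical axis) against that in wild type and chk1 (horizontal axis) for all features, with the 8 features whose difference passed in purple and a dotted line of equal change. The 4 below the line (nc-pho1, cig2, cdc22, dut1) rose in wild type and chk1, and the 4 above it (gut2, pyp2 and genes with systematic names) rose in rad3 and cds1.

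Set against wild type and chk1, the change from 30 to 60 min differed for 8 features (0.163%), 4 of them lower and 4 higher (0.0813% each) in rad3 and cds1. The lower ones included the cyclin gene cig2, the dUTPase gene dut1 and cdc22, which encodes the large subunit of ribonucleotide reductase; all of these are on the G1/S list. cig2 read -0.05 and 0.15 in rad3 and -0.20, -0.11 and -0.26 in cds1 at 60 min, against 0.01, 0.22 and 0.12 in rad3 and -0.12, 0.08 and 0.25 in cds1 at 30 min. In wild type it read 1.44 and 1.52 at 60 min, against 0.91 and 0.99 at 30 min. In chk1 it read 1.54 and 1.36 at 60 min, against 0.24, 0.95 and 0.63 at 30 min. So cig2 overlapped between times in both mutants and was apart in wild type and chk1, and the difference of the changes was -0.85 ± 0.14 (adjusted p = 0.00065). The differences were -0.56 ± 0.09 for dut1 and -0.56 ± 0.12 for cdc22 (adjusted p = 0.023).

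The fourth was nc-pho1, a non-coding transcript at the phosphatase gene pho1. It read -0.09 and -0.23 in rad3 and 0.13, -0.29 and -0.28 in cds1 at 60 min, against -0.05, 0.02 and 0.15 in rad3 and 0.59, 0.19 and 0.20 in cds1 at 30 min. In wild type and chk1 it read 0.75 to 0.88 at 60 min, against -0.10 to 0.47 at 30 min. The signs were opposite: -0.34 in rad3 and cds1 (adjusted p = 0.063) and 0.70 in wild type and chk1 (adjusted p = 0.00012), a difference of -1.03 ± 0.15 (adjusted p = 5.3e-05). This call held in all 32 alternatives run for it.

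The 4 features with the larger rise in rad3 and cds1 were gut2 (difference 0.62 ± 0.12), SPOM_SPAC2F3.05C (0.62 ± 0.12), SPOM_SPCC16A11.15C (0.59 ± 0.12) and pyp2 (0.64 ± 0.14). gut2 read -0.55 and -0.72 at 60 min in wild type, against -0.61 and -0.72 at 30 min, and -0.46 and -0.55 at 60 min in chk1, against -0.71, -0.42 and -0.68 at 30 min. There the times overlapped, and in rad3 and cds1 they did not. The pyp2 means in cds1 were -1.02, -1.04, -0.73, 0.06 and -0.20 at 0, 10, 30, 60 and 120 min, and in wild type -0.92, -1.03, -0.86, -0.69 and -0.89. Of the 88 genes called in rad3 and cds1, the difference passed for these 4 features with the larger rise. Under quantile normalization 2 of the 8 passed, nc-pho1 and pyp2. The call of the difference was lost for pyp2 when arrays were centred on their medians (adjusted p = 0.057) and in 14 of 20 fits without 1 sample, and for cdc22 in 11 of 20. It was lost for SPOM_SPCC16A11.15C in 5 of these fits, for gut2 without replicate 2 of rad3 at 60 min (0.055) and for SPOM_SPAC2F3.05C without replicate 2 of wild type at 30 min (0.067). The first probe alone kept 3 of the 8 calls and the second alone 1. With the second, dut1 (difference -0.35) and cig2 (limma adjusted p = 0.069) were among those lost. The call of dut1 was also lost with only the groups compared (0.12).

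**Figure D5:**
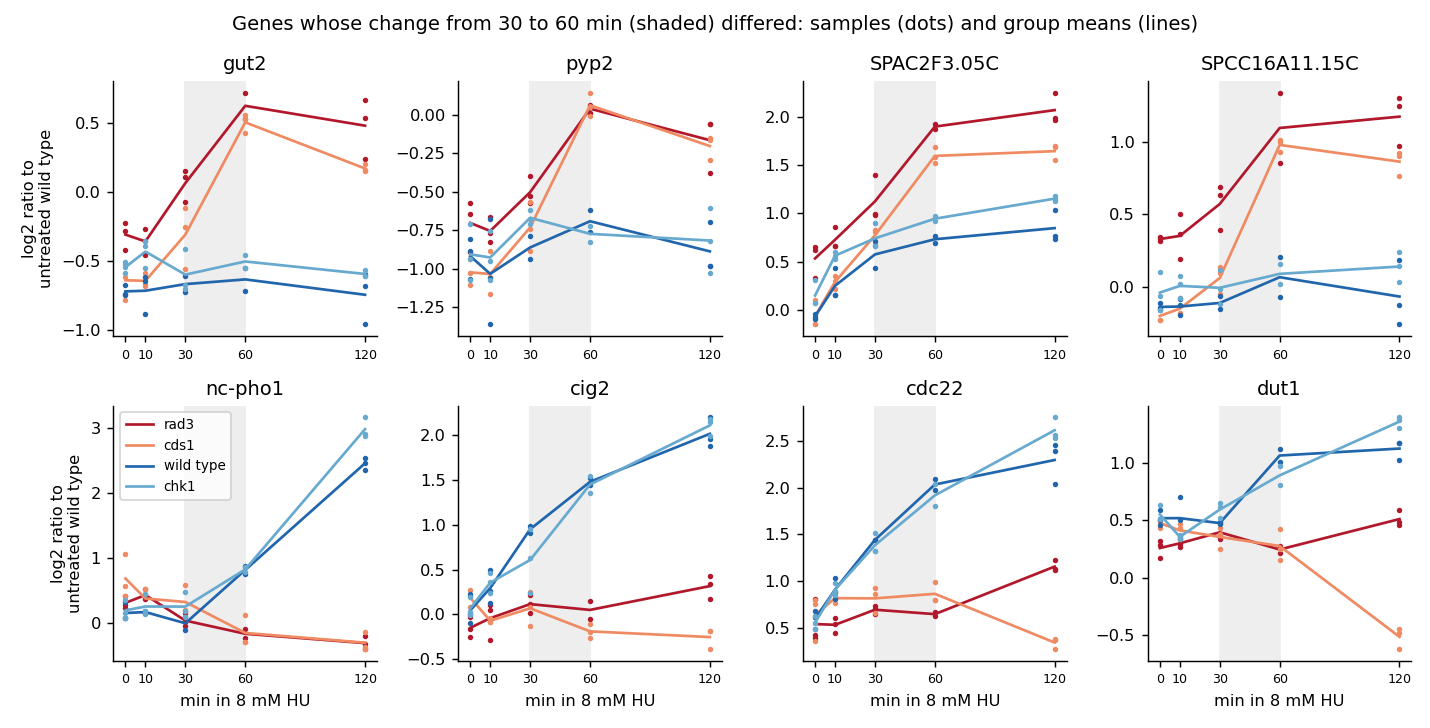
Log2 ratio to untreated wild type (vertical axis, one scale per gene) over 0, 10, 30, 60 and 120 min in 8 mM hydroxyurea (horizontal axis) in rad3, cds1, wild type and chk1, as samples (dots) and group means (lines), for the 8 features whose change in the shaded interval differed. By 120 min nc-pho1 means reach 2.46 in wild type and 2.98 in chk1, and lie at -0.31 in rad3 and -0.30 in cds1.

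Samples outside the comparison were then read for the called genes. Between 120 and 0 min in the same mutants, where 45% of all features were called 21.2% higher and 23.7% lower, all 70 genes that rose were called higher, with a median of 1.22. Of the 18 that fell, 14 were called lower and 3 higher: urg1, urg2 and SPOM_SPAC521.03. Between 10 and 0 min, where 0.427% of features were called (0.366% higher and 0.061% lower), 2 of the 70 were called higher and 5 of the 18 were called higher, the opposite of their later direction. In the rad3 sep1 double mutant, with 1 sample a time after near-identical arrays were averaged, 70 of the 70 were higher at 60 min, as were 40.8% of all features, and 16 of the 18 were lower, as were 59.2% of all features.

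Few called genes were neighbours. Of the 88, all matched to the RefSeq annotation (ASM294v3), 4 (4.55%) lay next to another called gene when only tested genes were counted. The share was 3.62% among the 4697 matched genes that were not called. The pairs were tms1 with adh8 and SPOM_SPAC513.07 (0.42) with SPOM_SPAC2E1P3.01 (0.60), and both members rose in each.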

How the data were processed

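The deposited values were log2 ratios of Cy5 (the sample) to Cy3 (untreated wild type), per the labels; 100% were log2 of a ratio with 3 decimals (tolerance 1e-05), and the low signal of each mutated gene in its own mutant fits this direction. How the authors normalized them was not given in the sources used here, and the values were used as deposited. The 2 probes of a gene were averaged. Of 9858 probes 9632 had 1 gene symbol, 44 had several and 182 none, in the platform annotation, and a name was given only to a feature whose probes had 1 symbol. The test covered the 4921 of 4929 features that had 2 or more values in each group.

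Among 65 pairs of arrays of a group, 9 differed by no more than noise between probes (r of the difference between probes under 0.05) and were averaged, which gave 61 samples in 25 groups of strain and time. A model of group means over all 61 samples was fitted in R 4.3.3 by lmFit and eBayes of limma 3.58.1. Contrasts weighted strains equally, and p-values were adjusted by the Benjamini-Hochberg method over all features at a threshold of 0.05. The fit was tested on simulated data. Precision is limited by the number of arrays.

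The comparison, its members and the 24 gene lists were chosen with earlier results of these data known. Lists are described by counts and medians, without a test. Named genes are the 15 largest increases and decreases whose 60 min samples all lay on one side of the strain's 30 min mean, up to 4 called members per list (2 where none was called), the 3 smallest adjusted p for cds1 minus rad3, and those past the threshold in the difference from wild type and chk1. hsp9, ntp1, caf5, ssa1, fes1, cdr1, rhp7, zym1, SPOM_SPAC513.07 and SPOM_SPAC2E1P3.01 were named after their values were seen, to complete counts. Comparisons with 120 against 0 min, 10 against 0 min and rad3 sep1 were added after seeing the data. Alternatives were arrays centred on their medians, quantile normalization, all 70 arrays as samples, other filters, each probe, robust eBayes, array weights, a replicate block, only the groups compared, a change of at least 1, an additive model of strain and time on the 12 arrays, and leaving out each sample. Python 3.11.15, pandas 2.3.3 and matplotlib 3.10.9 produced the tables and plots. No sequences are shown.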

Additional observations from a re-analysis of the deposited data

Results flagged for a closer look

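For 8 features the change from 30 to 60 min in rad3 and cds1 differed from that in wild type and chk1 by a test of the difference itself (limma, adjusted p under 0.05). The log2 differences were -1.03 for nc-pho1, -0.85 for cig2, -0.56 for dut1 and -0.56 for cdc22, all lower in rad3 and cds1. They were 0.64 for pyp2, 0.62 for gut2, 0.62 for SPOM_SPAC2F3.05C and 0.59 for SPOM_SPCC16A11.15C, all higher in rad3 and cds1. What lies behind each was not tested.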

How the results depend on the processing

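Centring arrays on their medians (87 called), other filters (88), robust eBayes (89), every probe as a feature (95), only the groups compared (70) and the additive model (101) kept the count of 88 within 1.5 times. Quantile normalization gave 39 called genes over both mutants (20 higher, 19 lower, against 70 and 18), 0 in rad3, 22 in cds1 and 2 for the difference from wild type and chk1. All 70 arrays as samples gave 176, 32, 82 and 19, and 1 for cds1 minus rad3. The first probe alone gave 48, 0, 22 and 3, and the second 47, 3, 31 and 2. Array weights gave 360 over both mutants, 36 in rad3 and 151 in cds1. Only the groups compared gave 1 in rad3, 30 in cds1 and 3 for the difference, and every probe as a feature 4 in rad3 and 5 for the difference. A change of at least 1 left 3, 1, 5 and 1. The cause was not tested, apart from the ceiling on hsp16 under quantile normalization. Leaving out 1 sample gave 49 to 134 over both mutants, 2 to 9 in rad3, 28 to 67 in cds1, 0 to 0 for cds1 minus rad3 and 4 to 12 for the difference. The change reversed for ddr48 with the second probe (-0.054) and for SPOM_SPCC1739.08C with the first (-0.083). Of 38 called genes among the 73 named, 11 kept the call in every alternative run.

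Samples of the times that share a replicate number had deviations from the group means with r of 0.38, 0.42 and -0.02 in rad3, -0.04, 0.34 and 0.09 in cds1, -0.15, 0.15 and -0.15 in wild type and 0.57, 0.30 and 0.46 in chk1. Since r was not over 0.1 in every pair, the numbers were not taken to pair the samples. In wild type the deviations at each time mirror each other. Its values are therefore a single correlation with changing sign, which could not all be over 0.1. In rad3 and cds1 some values were also not over 0.1 (-0.02, -0.04 and 0.09), and in chk1 all were over it. Whether the numbers pair the samples was thus not settled. With the number as a fixed replicate block 194 genes were called over both mutants, 23 in rad3, 115 in cds1, 1 (lsd90) for cds1 minus rad3 and 13 for the difference; as a random block 199, 24, 121, 1 and 16.

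The rad3 change rests on 2 samples at 60 min, and the spread of each feature was estimated over all 25 groups and moderated across features.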
